A study of Homo sapiens with 6 samples.

Results

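The genes described here repair broken or crosslinked DNA by homologous recombination and by the Fanconi anaemia pathway. They were picked by name. The list holds 37 genes, and 33 of them matched at least 1 probe set annotated to that gene alone, among 19775 genes measured in all. The other 4, BRCA2, FANCA, FANCD2 and RBBP8, matched none and are not analysed here. Expression was measured on Affymetrix arrays in MDA-MB-231, an established human breast cancer cell line that lacks the oestrogen receptor. Of 6 arrays, 3 were from cells transfected with a control vector and 3 from cells transfected with an expression plasmid for HS3ST2, an enzyme that adds 3-O-sulfate to heparan sulfate. No other treatment is given for either group. The labels do not say whether the cells were a pool or a clone, or when they were harvested. The labels call the replicates independent without saying what was repeated, so the p-values measure the spread between these arrays.

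Homologous recombination rebuilds a broken chromosome from its sister copy. The break is sensed and its ends are cut back, a recombinase is loaded on the single strand by BRCA1 and its partners, and the joined molecules are later resolved. The Fanconi pathway detects a crosslink at a stalled fork, attaches ubiquitin to a clamp of paired proteins and hands the lesion to nucleases and recombination. Sister copies exist only after replication, and many of these genes are transcribed most in cycling cells, from promoters known for binding sites of E2F, of the CCAAT-binding factor NF-Y and of the complexes that bind the cell cycle homology region.

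Promoter stretches of 6 members show these elements for genes that moved in either direction. They are the 4 members called lower with the smallest p and the 2 called higher, among those with a single promoter in the RefSeq table (GRCh38.p14). Each is the 250 bases before the annotated start, 5′ to 3′ on the gene's strand. Capitals mark matches on either strand to TTNNCGC with C or G at each N (E2F forms), to the CCAAT box, or to TTTGAA (cell cycle homology region).
BRIP1, chr17:61863529-61863778, minus strand: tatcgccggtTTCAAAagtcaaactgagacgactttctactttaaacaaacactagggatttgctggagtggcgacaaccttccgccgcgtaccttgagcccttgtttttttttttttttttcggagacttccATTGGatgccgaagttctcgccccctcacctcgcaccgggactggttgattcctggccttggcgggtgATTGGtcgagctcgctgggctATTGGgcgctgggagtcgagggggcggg
UBE2T, chr1:202341937-202342186, minus strand: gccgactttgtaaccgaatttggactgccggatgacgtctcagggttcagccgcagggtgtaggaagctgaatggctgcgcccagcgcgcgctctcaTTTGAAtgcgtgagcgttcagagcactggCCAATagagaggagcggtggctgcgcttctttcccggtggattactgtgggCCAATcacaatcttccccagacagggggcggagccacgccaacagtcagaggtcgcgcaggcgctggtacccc
BLM, chr15:90717096-90717345, plus strand: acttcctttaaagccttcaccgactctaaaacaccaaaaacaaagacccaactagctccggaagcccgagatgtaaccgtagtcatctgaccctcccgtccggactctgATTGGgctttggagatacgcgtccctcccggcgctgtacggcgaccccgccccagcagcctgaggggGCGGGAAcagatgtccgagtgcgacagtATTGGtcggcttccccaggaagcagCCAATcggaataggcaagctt
FANCM, chr14:45135680-45135929, plus strand: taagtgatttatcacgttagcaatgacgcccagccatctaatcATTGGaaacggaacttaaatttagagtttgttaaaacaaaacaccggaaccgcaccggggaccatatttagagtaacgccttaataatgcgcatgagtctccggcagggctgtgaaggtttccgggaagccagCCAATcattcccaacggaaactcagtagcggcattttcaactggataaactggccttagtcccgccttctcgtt
FANCL, chr2:58241326-58241575, minus strand: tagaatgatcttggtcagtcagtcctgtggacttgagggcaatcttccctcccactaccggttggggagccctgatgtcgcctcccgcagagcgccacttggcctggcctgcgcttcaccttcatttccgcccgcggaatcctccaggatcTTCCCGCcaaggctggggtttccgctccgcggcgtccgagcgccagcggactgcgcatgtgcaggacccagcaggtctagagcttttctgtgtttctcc
CHEK2, chr22:28741821-28742070, minus strand: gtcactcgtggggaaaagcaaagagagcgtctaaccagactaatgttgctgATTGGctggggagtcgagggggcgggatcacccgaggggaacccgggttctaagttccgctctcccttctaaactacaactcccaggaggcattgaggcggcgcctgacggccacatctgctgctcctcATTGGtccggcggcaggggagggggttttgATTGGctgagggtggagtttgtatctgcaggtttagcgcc

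BRIP1, UBE2T, BLM and FANCM, which fell, each hold at least 1 CCAAT match in the printed stretch, and so does CHEK2, which rose. FANCL, which rose, holds an E2F form and no CCAAT. The table held 40 promoters of 29 measured members. Over the full 300 bases, which run 50 past the start, 21 of 40 member promoters held an E2F form, against 16.1% of all 22198 protein-coding promoters. CCAAT was in 20 of the 40 against 34.7% of all, and TTTGAA in 4 against 12.4%. Among promoters of members that fell, 11 of 20 held an E2F form and 12 held CCAAT, and among promoters of members that did not pass, 9 of 18 held an E2F form and 7 held CCAAT. Counted by promoter, the E2F share was thus similar, 55% in members that fell and 50% in members that did not pass. Counted by gene, the shares were further apart. Among 14 genes that fell, BARD1, BLM, BRCA1, BRIP1, EME1, EXO1, FANCG, RAD51AP1, RAD54L and XRCC3 held an E2F form. Among 13 genes that did not pass, FANCC, FANCE, FANCF, MSH6 and XRCC2 did. These are letter matches and a description without a test. Promoters of 1 gene overlap, and no E2F match in the members overlapped a CCAAT match.

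Values are the deposited log2 numbers, which are centred so that the median of the 6 arrays is 0 for each probe set. They show differences between arrays and not how strongly a gene is expressed. Probe sets of a gene were averaged. A change is the mean of the HS3ST2-labelled arrays minus the mean of the control arrays, given ± the standard error of limma's moderated test with n = 3 per group, and it is called where the p adjusted over all genes by Benjamini-Hochberg is under 0.05. Per probe set, 2 arrays of a group differed by a median of 0.10 to 0.12, and 2 arrays of different groups by 0.16 to 0.19. The 1 probe set for HS3ST2 itself did not pass (0.11 ± 0.10, limma adjusted p 0.523). Whether it can see the plasmid's transcript is not known from these files, so directions rest on the labels.

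More of the listed genes were called lower than higher in the HS3ST2-labelled arrays. Of the 33 measured members, 18 fell, 2 rose and 13 did not pass. Over all genes, 13.0% were called lower and 11.5% higher. The falls were modest. They ran from 0.24 log2 in DNA2 to 0.78 in RAD54B, a 1.72-fold difference, with a median of 0.39. Of the 33 members, 5 were called lower by at least 0.5, against 3.11% of all genes. The median change over all measured members was -0.27, and over all genes 0.01. In 23 members every HS3ST2-labelled array was below every control array, and in 4 every one was above, against 20.9% and 19.5% of all genes.

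The median of the 33 members was 0.08, 0.15 and 0.10 with the control vector and -0.11, -0.10 and -0.11 with the HS3ST2 plasmid. The groups were apart and no single array carried the difference, since 16 to 18 members fell and 2 rose with any 1 array left out. Proliferation markers moved with them. Of 23 such markers 18 fell, with a median of -0.60, among them PLK1, a mitotic kinase (-1.33 ± 0.10), the cyclins CCNB1 (-0.98 ± 0.06) and CCNA2 (-0.86 ± 0.06), and TYMS, the thymidylate synthase (-0.72 ± 0.05). The median of the marker list was 0.21 to 0.31 in the control arrays and -0.31 to -0.23 in the HS3ST2-labelled arrays. Its part in the result was not tested. In RNA from a whole culture, fewer cells in a given phase and less RNA per cell cannot be told apart.

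**Figure D1:**
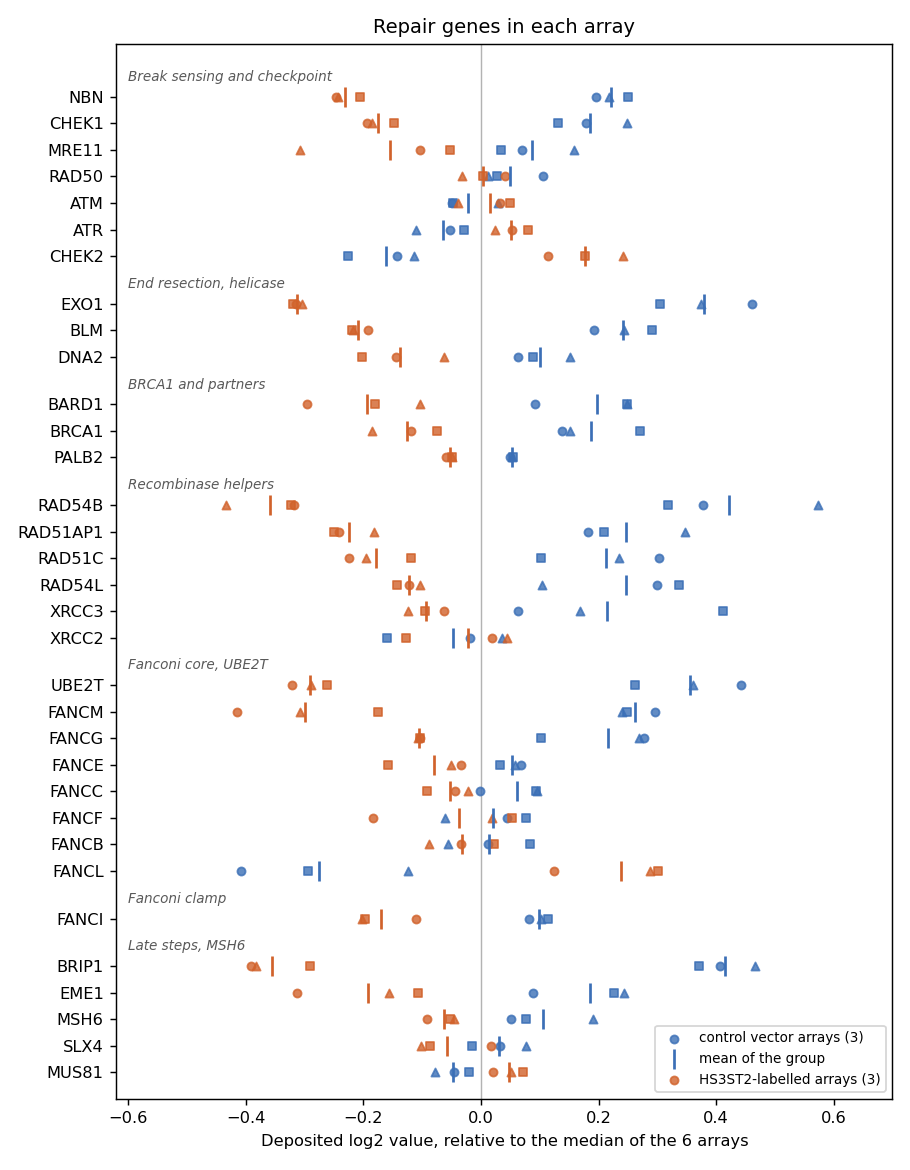
Deposited log2 value of each measured repair gene (horizontal axis, relative to the median of the 6 arrays) in the 3 control vector arrays (blue) and the 3 HS3ST2-labelled arrays (orange). Circles, triangles and squares are replicates 1, 2 and 3, ticks are group means, and genes are grouped by role. In 23 genes all orange points lie left of all blue points, and in 4 genes all lie right.

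Among the 7 genes that sense breaks and signal to the checkpoint, NBN and CHEK1 fell, CHEK2 rose and 4 did not pass. NBN encodes the targeting subunit of the MRE11-RAD50-NBN complex, the first protein complex at a break. NBN gave 0.20, 0.22 and 0.25 with the control vector and -0.25, -0.24 and -0.21 with the HS3ST2 plasmid. The 6 arrays split cleanly into groups, with a change of -0.45 ± 0.05 (limma adjusted p 4.63e-04). The fall rests on 4 probe sets whose names end in _s_at or _x_at, the suffixes for probe sets that match several transcripts or may bind other sequences too, and the 1 without them was at 0.09 and not called. CHEK1, the checkpoint kinase that acts below ATR, gave 0.18, 0.25 and 0.13 with the control vector and -0.19, -0.19 and -0.15 with the HS3ST2 plasmid. All HS3ST2-labelled arrays were lower, by 0.36 ± 0.05 on average (limma adjusted p 0.00211).

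CHEK2, the kinase below ATM, went the other way. CHEK2 gave -0.14, -0.11 and -0.23 with the control vector and 0.11, 0.24 and 0.18 with the HS3ST2 plasmid. It rose by 0.34 ± 0.06 (limma adjusted p 0.00427), with no overlap of the groups, from a single probe set whose name ends in _s_at. The kinases above them did not pass. ATR changed by 0.12 ± 0.05 (95% interval -0.0035 to 0.24) and ATM by 0.04 ± 0.05 (-0.09 to 0.16, over 6 probe sets from -0.14 to 0.22). The partners of NBN did not pass either. MRE11 was at -0.24 ± 0.08 (limma adjusted p 0.0555), with the groups apart, and RAD50 at -0.04 ± 0.05 (adjusted p 0.612). MRE11 was called lower without HS3ST2 replicate 3 (-0.29).

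All 3 measured genes of end resection fell. EXO1, the exonuclease that digests the 5′ strand, gave 0.46, 0.37 and 0.30 with the control vector and -0.31, -0.30 and -0.32 with the HS3ST2 plasmid. The latter were almost equal to each other, and the change was -0.69 ± 0.06 (limma adjusted p 1.28e-04). BLM, the helicase that unwinds ends for resection and dissolves joined molecules, gave 0.19, 0.24 and 0.29 with the control vector and -0.19, -0.22 and -0.22 with the HS3ST2 plasmid. Its groups did not overlap either, and it fell by 0.45 ± 0.05 (limma adjusted p 5.80e-04). DNA2, a nuclease that works with BLM, fell by 0.24 ± 0.06 (limma adjusted p 0.0200). That call was lost without control replicate 2 (-0.21), control replicate 3 (-0.24), HS3ST2 replicate 1 (-0.23) or HS3ST2 replicate 3 (-0.21).

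BRCA1 and BARD1, which form a ubiquitin ligase and need each other for stability, both fell. BARD1 gave 0.09, 0.25 and 0.25 with the control vector and -0.30, -0.10 and -0.18 with the HS3ST2 plasmid. The spread was wider than for NBN, but the groups did not overlap, and the change was -0.39 ± 0.07 (limma adjusted p 0.00549). BRCA1 gave 0.14, 0.15 and 0.27 with the control vector and -0.12, -0.18 and -0.07 with the HS3ST2 plasmid, a change of -0.31 ± 0.06 (limma adjusted p 0.00686). PALB2, which links BRCA1 to the recombinase loader, did not pass. Its change was small and its arrays close, at -0.10 ± 0.05 (95% interval -0.21 to 0.0043).

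Of 6 genes that help the recombinase form filaments and exchange strands, 5 fell. RAD54B, a DNA translocase, gave 0.38, 0.57 and 0.32 with the control vector and -0.32, -0.43 and -0.32 with the HS3ST2 plasmid. This was the largest fall among the measured members (-0.78 ± 0.08, limma adjusted p 2.94e-04). RAD51AP1, a strand-exchange stimulator, gave 0.18, 0.35 and 0.21 with the control vector and -0.24, -0.18 and -0.25 with the HS3ST2 plasmid. It fell by 0.47 ± 0.06 (limma adjusted p 0.00110), with every HS3ST2-labelled array below every control. RAD54L, the other translocase, fell by 0.37 ± 0.07 (limma adjusted p 0.00636).

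The recombinase paralogs RAD51C and XRCC3 bind each other, and both fell. RAD51C changed by -0.39 ± 0.07 (limma adjusted p 0.00382) and XRCC3 by -0.31 ± 0.09 (limma adjusted p 0.0371). The call of XRCC3, whose control arrays spread from 0.06 to 0.41, was lost without control replicate 2 (-0.33), control replicate 3 (-0.21), HS3ST2 replicate 1 (-0.32), HS3ST2 replicate 2 (-0.29) or HS3ST2 replicate 3 (-0.31). XRCC2, a paralog of another complex, did not pass (0.03 ± 0.07, 95% interval -0.14 to 0.20).

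**Figure D2:**
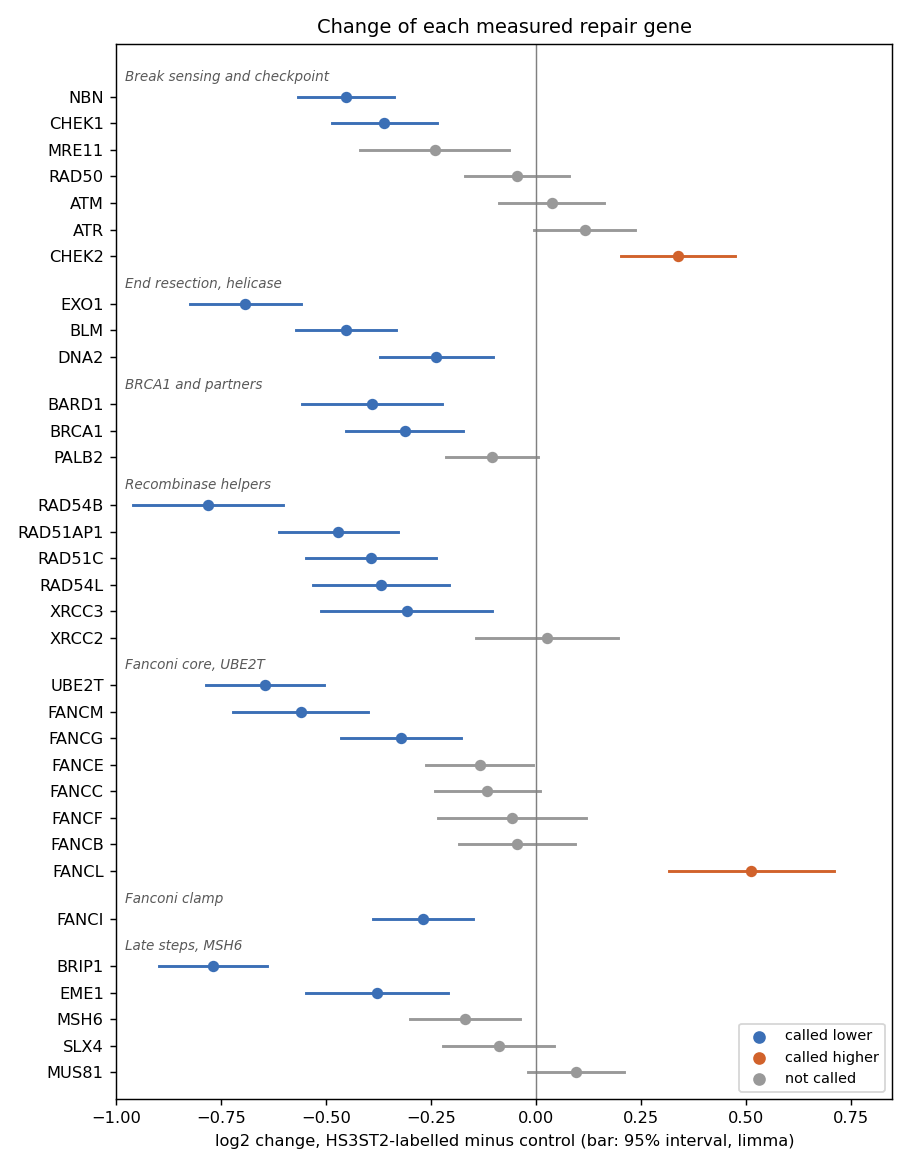
Change of each measured repair gene (horizontal axis, log2, HS3ST2-labelled minus control) with its 95% interval by limma, n = 3 per group. Blue genes were called lower (18), orange higher (2, CHEK2 and FANCL) and grey not called (13).

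The Fanconi core, a nuclear ubiquitin ligase of many subunits, went apart. Of its 8 measured genes, counted with UBE2T, 3 fell, 1 rose and 4 did not pass. UBE2T, the enzyme that carries ubiquitin for the ligase, gave 0.44, 0.36 and 0.26 with the control vector and -0.32, -0.29 and -0.26 with the HS3ST2 plasmid. Every HS3ST2-labelled array was below 0 and every control above, with a change of -0.65 ± 0.06 (limma adjusted p 2.39e-04). FANCL, the subunit that catalyses the transfer with UBE2T, was on the other side. FANCL gave -0.41, -0.12 and -0.29 with the control vector and 0.12, 0.29 and 0.30 with the HS3ST2 plasmid, from 1 probe set. It rose by 0.51 ± 0.09 (limma adjusted p 0.00343), and its groups did not overlap.

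FANCM, the translocase that anchors the core to DNA, fell by 0.56 ± 0.07 (limma adjusted p 8.40e-04). FANCM gave 0.30, 0.24 and 0.25 with the control vector and -0.41, -0.31 and -0.18 with the HS3ST2 plasmid, so the treated arrays varied more than the controls. The core subunit FANCG fell by 0.32 ± 0.06 (limma adjusted p 0.00696). The other core subunits stayed within a narrow band and did not pass, from FANCE (-0.13 ± 0.06) and FANCC (-0.12 ± 0.05) to FANCF (-0.06 ± 0.08) and FANCB (-0.05 ± 0.06). In FANCE and FANCC every HS3ST2-labelled array was nevertheless below every control, while in FANCF and FANCB the groups overlapped. FANCI, a subunit of the clamp that the core marks with ubiquitin, gave 0.08, 0.10 and 0.11 with the control vector and -0.11, -0.20 and -0.20 with the HS3ST2 plasmid. Its groups were apart and it fell by 0.27 ± 0.05 (limma adjusted p 0.00696).

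Of the 5 genes of later steps, MSH6 included, 2 fell. BRIP1, a helicase that binds BRCA1 and acts after the clamp, gave 0.41, 0.47 and 0.37 with the control vector and -0.39, -0.38 and -0.29 with the HS3ST2 plasmid. This gap of -0.77 ± 0.06 was wide against the spread within either group and had the smallest p of any measured member (limma adjusted p 7.14e-05). EME1, the partner subunit of the nuclease MUS81, gave 0.09, 0.24 and 0.23 with the control vector and -0.31, -0.16 and -0.11 with the HS3ST2 plasmid. EME1 fell by 0.38 ± 0.07 (limma adjusted p 0.00696), while MUS81 itself was at 0.10 ± 0.05 and did not pass (95% interval -0.02 to 0.21). SLX4, the scaffold for such nucleases, was at -0.09 ± 0.06. MSH6, a mismatch recognition protein on the list, was at -0.17 ± 0.06 (limma adjusted p 0.0671), and neither passed.

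Single probe sets showed where an average hides a split. Of the members' 72 probe sets, 30 were called lower and 3 higher, against 8.98% and 7.90% of all probe sets. The falls of EXO1, DNA2, BLM, XRCC3, RAD51AP1, RAD54L, RAD54B, FANCG and UBE2T rest on 1 probe set each. Those of DNA2 and XRCC3 were not called in the fit over probe sets (limma adjusted p 0.0518 and 0.0667). RAD50, near 0 on average, had 1 probe set called lower (-0.35), 1 called higher (0.30) and 1 not called (-0.09). The first gave 0.14, 0.23 and 0.18 with the control vector and -0.18, -0.18 and -0.14 with the HS3ST2 plasmid, and the second -0.08, -0.20 and -0.06 against 0.31, 0.06 and 0.19. Both have groups that do not overlap, in opposite directions. Which transcripts each detects is not given in the files used here.

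NBN showed a similar split, with its 4 probe sets ending in _s_at or _x_at at -0.75 to -0.33. In CHEK1 3 of 4 probe sets were called lower, from -0.59 to -0.35, and the fourth was at 0.01. In FANCM the 3 probe sets ending in _s_at or _x_at were called lower and the other was at -0.21 and not called. MRE11, MSH6 and FANCC, which did not pass as genes, had 1, 2 and 1 probe sets called lower. Both probe sets of BRIP1 were called (-0.81 and -0.73). Of the 2 of RAD51C, 1 was called lower (-0.59) and the other was at -0.19 and not called. BARD1 had 1 of 3 called lower, BRCA1 and EME1 1 of 2 and FANCI 2 of 3, and their other probe sets were also below 0.

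**Figure D3:**
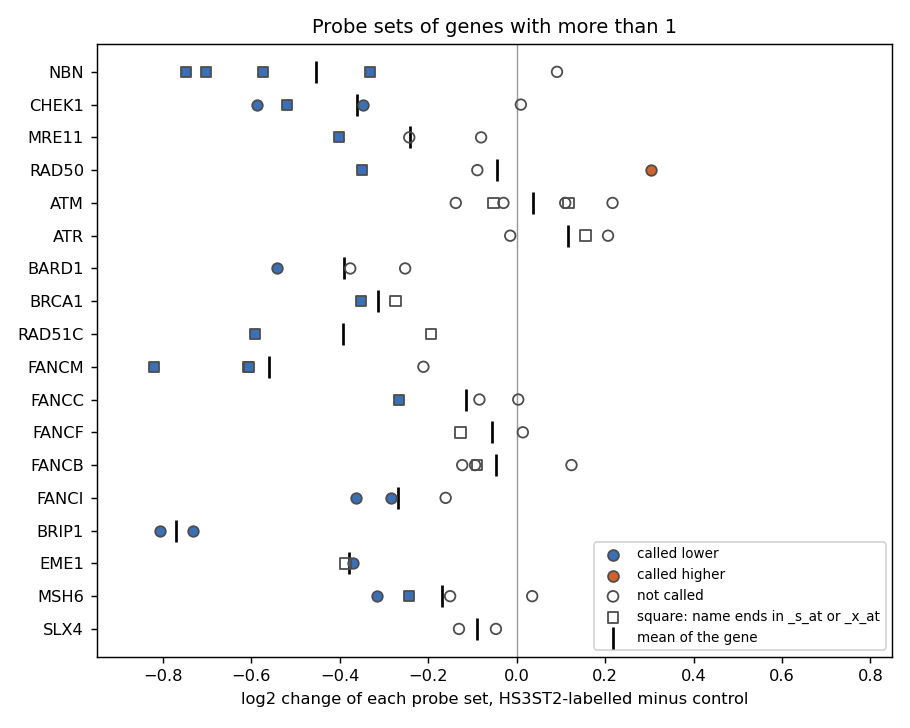
Log2 change of each probe set (horizontal axis, HS3ST2-labelled minus control) for the 18 measured members with more than 1. Blue was called lower, orange higher and open symbols were not called. Squares end in _s_at or _x_at, and the tick is the gene's mean. RAD50 has called probe sets on both sides of 0, and the open circle of NBN stands apart from its 4 blue squares.

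Further genes of the same pathways were read from a second list. Of 47 measured, 11 fell, 3 rose and 33 did not pass, with a median of -0.09, beside 13.0% and 11.5% of all genes. MDC1, a scaffold at marked chromatin, fell by 0.71 ± 0.05 (limma adjusted p 6.96e-05), and RPA3, a subunit of the single-strand binding protein, by 0.52 ± 0.06. RMI1 and RMI2, partners of BLM in dissolving joined molecules, fell by 0.47 ± 0.06 and 0.40 ± 0.06, and CENPX, a partner of FANCM, by 0.42 ± 0.06. The 3 rises were all lost without any 1 array other than control replicate 1. Of 11 checkpoint clamp and mediator genes, 4 fell and 1 rose. The mitotic entry phosphatase CDC25C (-0.68 ± 0.07), the fork protection factor TIPIN (-0.62 ± 0.06), the CDK1-inhibiting kinase WEE1 (-0.61 ± 0.06) and CLSPN, the adaptor for CHEK1 (-0.25 ± 0.07), were lower, and RAD9A, a clamp subunit, was higher by 0.24 ± 0.06, a call that went when replicate 1 or 2 of the control or replicate 2 of HS3ST2 was left out.

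Lists of other repair routes were read beside the 13.0% of all genes called lower and the 11.5% called higher. In base excision and single-strand break repair, 11 of 21 genes fell and 3 rose with a median of -0.22, beside -0.27 in the recombination and Fanconi genes. PARP2, an enzyme that marks nicks, fell by 0.53 ± 0.05 and the ligase LIG3 by 0.50 ± 0.05. In nucleotide excision repair, 5 of 17 rose and 3 fell, a share of falls near that of all genes. XPC, the damage detector, rose by 0.55 ± 0.06 and the nuclease ERCC5 by 0.59 ± 0.07. In end joining without homology, 2 of 11 fell and 1 rose, both near the shares of all genes. LIG4, the ligase of that route, rose by 0.82 ± 0.06, and PRKDC, its kinase, fell by 0.49 ± 0.06. The end-joining factor PAXX fell by 0.27 ± 0.08, and leaving out any 1 array other than control replicate 3 left 1 gene lower. Of 3 measured mismatch repair genes besides MSH6, the MutL subunit MLH3 fell by 0.31 ± 0.05. Differences between these lists were not tested.

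**Figure D4:**
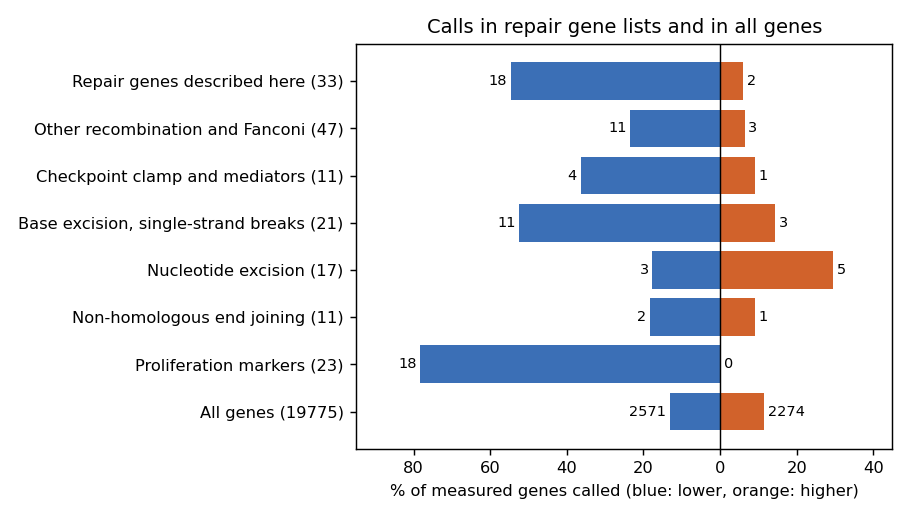
Percent of measured genes called lower (blue, left) or higher (orange, right) in each repair list, in the proliferation markers and in all genes, with the number of genes beside each bar and the list's size in brackets. The repair genes described here have 18 of 33 lower, base excision genes 11 of 21 and all genes 2571 of 19775.

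The measured members lie on 17 chromosomes. To see whether they moved with their surroundings, the 10 nearest measured genes on each side of each member, in RefSeq gene order, were read from the same fit. Of these 660 neighbours (a gene can serve several members), 13.3% were called lower, close to the 13.0% of all genes. NBN stood lowest, with 7 of 20 neighbours called lower and a median of -0.14, and PALB2 also had 7 of 20 (median -0.11). RAD54B, on chromosome 8 like NBN, had 4 of 20 lower (median -0.08). The most neighbours called higher were beside ATR, 7 of 20 (median 0.05), and FANCI, 6 of 20 (median 0.08), where 11.5% of all genes were. BLM fell among neighbours with a median of 0.11, and FANCL rose among neighbours with a median of -0.05.

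Technical readouts differed between arrays as well. The 6 probe sets for ribosomal RNA had a median of -0.29 to -0.06 in the control arrays and 0.02, 0.16 and 0.74 in HS3ST2 replicates 1, 2 and 3 (p = 0.1 by a two-sided exact permutation test, which cannot go lower with 3 against 3). The added polyadenylated bacterial transcripts were lowest in control replicate 3 (-0.86) and highest in HS3ST2 replicate 3 (0.70). Without HS3ST2 replicate 3, 17 members fell and 2 rose, and without control replicate 3, 16 fell and 2 rose. GAPDH, a glycolytic gene often used as a reference, fell by 0.27 ± 0.05, while ACTB (-0.11 ± 0.05) and TBP (-0.10 ± 0.07) did not pass. Markers of other cell types were read as differences only, since levels are not kept. Of 11 luminal epithelial markers 4 rose, led by TFF1 (3.04 ± 0.09) and TFF3 (2.54 ± 0.05), and 2 of 7 without _x_at and _s_at probe sets. Of 4 mesenchymal markers FN1 rose by 0.46 ± 0.06 and VIM fell by 0.20 ± 0.06, the latter not called without any one of the arrays except control replicate 2. Of 6 leukocyte markers 2 rose, ITGB2 (1.11 ± 0.05) and CORO1A (0.37 ± 0.07), and 1 fell, LAPTM5 (-0.59 ± 0.07). The 7 fibroblast markers had a median of -0.01. Over all genes, 11.5% were called higher and 13.0% lower. The part of these markers and technical readouts in the result was not tested.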

How the data were processed

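RNA was hybridised to 6 Affymetrix arrays. RMA, which normalises arrays and summarises probes, is named in the submitters' processing notes. The deposited log2 values had been centred per probe set (the median of the 6 arrays was 0 within 4.8e-07). How this was done is not stated in the sources used here, and levels are unknown. The base of the logarithm was taken as 2.

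Of 54613 probe sets (62 control probe sets set aside), 41091 carried 1 gene symbol, 1801 several and 11721 none. Those with 1 symbol were averaged into 19775 genes, named by current gene records (41037 matched). For the repair genes, 2 probe sets shared between RAD54B and another gene were left out. Groups were compared with limma 3.58.1 (lmFit, eBayes, R 4.3.3), once over genes and once over probe sets. The fit over genes was also run on simulated data with known changes.

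Per-array values are given for the 2 members of each role with the smallest p and for those that rose, and up to 5 called genes are named from each other list. Members, lists, motifs and tests were chosen with earlier results of these data known. The neighbour and promoter summaries carry no test. Alternatives were a replicate block, each array left out, quantile normalization, array median centring, array weights, robust eBayes, other thresholds and other ways to choose or combine probe sets. A filter on dim probe sets needs levels and was not run.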

Additional observations from a re-analysis of the deposited data

How the results depend on the processing

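The counts of 18 members lower and 2 higher were equal under quantile normalization, array median centring, array weights, robust eBayes, the median over probe sets and without _x_at probe sets. With 1 array left out, 16 to 18 members were lower, 2 were higher, the median change was -0.30 to -0.26, and 20 to 24 probe sets were lower and 1 to 2 higher. Requiring a change of at least 0.5 log2 left 5 members lower and 1 higher, and 15 probe sets lower and 1 higher. At an adjusted p under 0.01, 16 members were lower and 2 higher, with 18 probe sets lower and 1 higher. Without _x_at and _s_at probe sets, 27 members remained measured, of which 13 were lower and 1 higher, the median change was -0.21, and 16 probe sets were lower and 1 higher. BRCA1, CHEK2, RAD51C and XRCC3 have no other probe sets. There NBN was at 0.091, RAD50 at 0.11 and FANCF at 0.014, each above 0 and not called, and FANCM lost its call. With the probe set of largest SD, 19 members were lower and 2 higher, the median change was -0.35 and ATR was at -0.015. MRE11, MSH6 and RAD50 were called lower there, and EME1 and XRCC3 were not called. That SD was taken over all arrays, so it includes the group difference that was then tested. The choice favours probe sets with a large difference, and its counts and median are no independent check. For RAD50 it kept the probe set at -0.35 and left out those at 0.30 and -0.09. With arrays left out, XRCC2 ranged from -0.030 (without control replicate 3) to 0.079, with -0.0073 without HS3ST2 replicate 2, and FANCF from -0.10 to 0.017 (without HS3ST2 replicate 1). Without _x_at and _s_at probe sets, 5 of 15 base excision genes and 2 of 9 checkpoint genes were lower. The cause of these shifts was not tested. Shares over all genes were counted only at the main setting and for called falls of at least 0.5 log2 (3.11%). At the other settings the member counts therefore stand without a background share.

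With the replicate number as a replicate block, 18 members were lower and 2 higher, with 26 probe sets lower and 3 higher, and a median change of -0.27. Same-numbered arrays deviated from their group means with correlations of 0.15, 0.04 and -0.08, and control replicate 3 correlated best with HS3ST2 replicate 2 (0.18). With 3 arrays per group these correlations cannot show whether same-numbered arrays were handled together. The 3 arrays per group limit the precision, and signal over background cannot be judged from centred values.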
